A study of Arabidopsis thaliana with 18 samples.

Results

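JAR1-OE was compared directly with jar1-11 in rosette leaves of watered Arabidopsis thaliana. By their labels these lines are the extremes of JAR1 dose in the series, a knockdown and an overexpression line. The 6 libraries were chosen by their labels, as the 3 watered libraries of each line, and make up 6 of the 18 libraries deposited. The series crosses 3 genotypes (WT Col-0 and the 2 lines) with watering or drought, in 3 libraries each. jar1-11 is labelled as a knockdown of JAR1 carrying the insertion SALK_034543, and JAR1-OE as a line that overexpresses the JAR1.1 form. Its promoter and the number of independent insertions were not stated in the labels. Plants grew in long days for 18 days, were then either watered on or left dry for 14 days, and were taken at 32 days of age. RNA came from whole rosette leaves, so fewer cells of a type and less RNA per cell cannot be told apart. The labels name the 3 libraries of a group biological replicates without saying whether each is 1 plant or a pool, so that the p-values rest on the variation among these libraries, which may be technical.

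JAR1 joins jasmonic acid to isoleucine. The product, JA-Ile, is the hormone that the receptor COI1 perceives together with a JAZ repressor. The JAZ protein is then degraded, which frees MYC2, MYC3 and MYC4 to switch on genes for wound and insect defence, the JAZ genes among them. In leaves the pathway is known for storage proteins, glucosinolate defences and slower growth.

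Promoter windows of 250 bases before the start of the gene were read from RefSeq TAIR10.1 for 4 genes that differed between the lines, because the MYC factors are known to bind the G-box (CACGTG) and the related T/G box (AACGTG, or CACGTT on the other strand). VSP1 and VSP2 encode vegetative storage proteins, and JAZ3 and JAZ2 encode repressors of the pathway. The windows lie at chr5:8509202-8509451 (VSP1, minus strand), chr5:8502225-8502474 (VSP2, minus strand), chr3:6119457-6119706 (JAZ3, plus strand) and chr1:28150447-28150696 (JAZ2, minus strand). Each is written 5′ to 3′ along its gene with both motifs in capitals.
VSP1: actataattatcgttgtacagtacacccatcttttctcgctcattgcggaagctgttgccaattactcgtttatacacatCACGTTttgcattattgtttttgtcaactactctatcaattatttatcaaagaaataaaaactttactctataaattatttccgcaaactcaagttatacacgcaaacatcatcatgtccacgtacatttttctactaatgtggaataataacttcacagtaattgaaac
VSP2: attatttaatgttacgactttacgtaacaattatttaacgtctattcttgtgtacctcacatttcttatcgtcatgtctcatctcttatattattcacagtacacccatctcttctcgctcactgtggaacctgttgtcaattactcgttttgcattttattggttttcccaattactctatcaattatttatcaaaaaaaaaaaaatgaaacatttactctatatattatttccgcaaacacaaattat
JAZ3: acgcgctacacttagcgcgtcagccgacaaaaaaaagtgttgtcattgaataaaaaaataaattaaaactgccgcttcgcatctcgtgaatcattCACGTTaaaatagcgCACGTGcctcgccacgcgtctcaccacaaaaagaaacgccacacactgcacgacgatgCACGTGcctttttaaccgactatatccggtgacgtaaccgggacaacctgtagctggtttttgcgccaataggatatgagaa
JAZ2: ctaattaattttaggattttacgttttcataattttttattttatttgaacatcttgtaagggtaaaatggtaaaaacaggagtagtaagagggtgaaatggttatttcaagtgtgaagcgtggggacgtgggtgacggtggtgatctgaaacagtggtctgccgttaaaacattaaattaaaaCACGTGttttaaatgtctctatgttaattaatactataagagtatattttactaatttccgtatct
VSP1 held a T/G box whose first base lies at -170 from the start. JAZ3 held G-boxes at -140 and -82 and a T/G box at -155, and JAZ2 held a G-box at -66. VSP2 held neither sequence in its window. No 2 of these matches overlap. The 4 genes are examples and do not stand for all genes that differed. The windows of JAZ9 and JAZ10, also called higher in JAR1-OE, held neither sequence. Those of JAZ12 and JAZ6, which were not called, held a T/G box. Both strands were searched in the windows of 16371 tested genes. A G-box was present in 7.43% of them, in 8.24% of genes called higher in JAR1-OE and in 6.89% of genes called lower. The T/G box was present in 7.24% of all windows, in 9.72% of those of genes called higher and in 7.61% of those called lower. The ethylene-linked GCC box (GCCGCC) was in 1.98%, 1.37% and 2.47% of the same windows. These are matches to letters and were not tested as binding sites.

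Library totals of the 6 ranged from 5721092 to 9506727 reads, and 3 reads in a library correspond to 0.316 to 0.524 CPM. Levels are given in CPM, a gene's reads scaled to a common library total, and were compared between lines for a gene and not between genes. JAR1 itself (AT2G46370, chromosome 2, bases 19033586 to 19036683 of TAIR10.1) stood at 6.52, 5.26 and 5.21 CPM in jar1-11 and 21.1, 27.4 and 21.9 CPM in JAR1-OE. Every JAR1-OE library was above every jar1-11 library (log2 fold change 2.03 ± 0.19, adjusted p = 2.22e-05, where ± is an approximate standard error). Adjusted p-values here are from the quasi-likelihood test of edgeR, adjusted over all genes tested by the method of Benjamini and Hochberg. The ± is the size of the log2 fold change over the square root of that test's F statistic. It understates the uncertainty of genes with few reads in a line. In the 3 watered WT libraries JAR1 was at 22.4, 23.5 and 29.9 CPM, so the level of this gene in JAR1-OE was not above WT (-0.11, adjusted p = 0.728). The files hold a separate entry of 732 bases named YFP-JAR1, which had 214, 88 and 307 reads in the JAR1-OE libraries, or 30.8, 14.7 and 37.5 CPM of each total. It had 0 reads in the 12 libraries of the other genotypes. The labels do not say how reads shared by JAR1 and the construct were divided, so the 2 entries were not added. The first principal component of the 6 libraries held 78.2% of the variance and placed the lines apart, at -37.3 to -24.6 for jar1-11 and 17.7 to 37.2 for JAR1-OE. JAR1-OE library 2 lay nearest to jar1-11 and also had the fewest YFP-JAR1 reads, and the part of the transgene in the spread among JAR1-OE libraries was not tested.

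**Figure D1:**
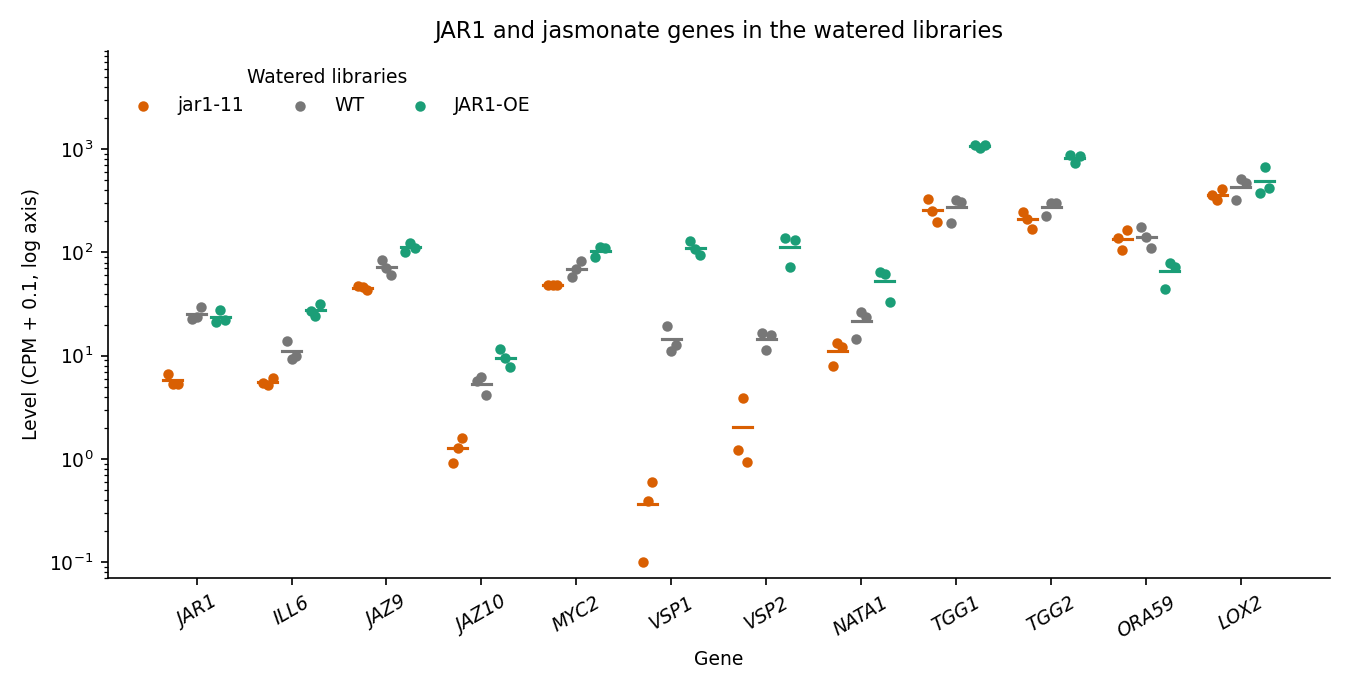
Levels of 12 genes in the watered libraries of jar1-11, WT and JAR1-OE, as CPM plus 0.1 on a log axis. Points are libraries and bars are group means. The JAR1-OE points of JAR1 lie with WT and above jar1-11, those of VSP1 and VSP2 lie far above jar1-11, and those of ORA59 lie below it.

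Of 27655 genes in the files 16459 had enough reads to be tested. At an adjusted p under 0.05, 3229 genes differed, which is 19.6% of those tested. They were 1848 genes higher in JAR1-OE (11.2%) and 1381 lower (8.39%), and the median log2 fold change of all genes tested was 6.38e-05. A difference of at least 1 on the log2 scale was reached by 829 of the genes called higher and by 326 of those called lower. The lines did not overlap in 3139 of the genes called. Over all genes tested, called or not, every JAR1-OE library was above every jar1-11 library in 19.7% and below in 17.9%. A single library moved these counts: without JAR1-OE library 3 the calls came to 1137 higher and 735 lower. Fits that estimate the spread over more libraries (the wider fits) gave 1767 calls with the 9 watered libraries and 1784 with all 18. Of 25 lists of genes by function, those of photosynthesis, jasmonate turnover, wall enzymes, myrosinases and MYC outputs had the largest shares of members called higher among the tested members. Counts of called members below stand beside the 11.2% called higher and 8.39% called lower over all genes tested. The lists were chosen with earlier results of these data known. Their shares are therefore descriptions, and a list's excess over all genes was not tested.

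**Figure D2:**
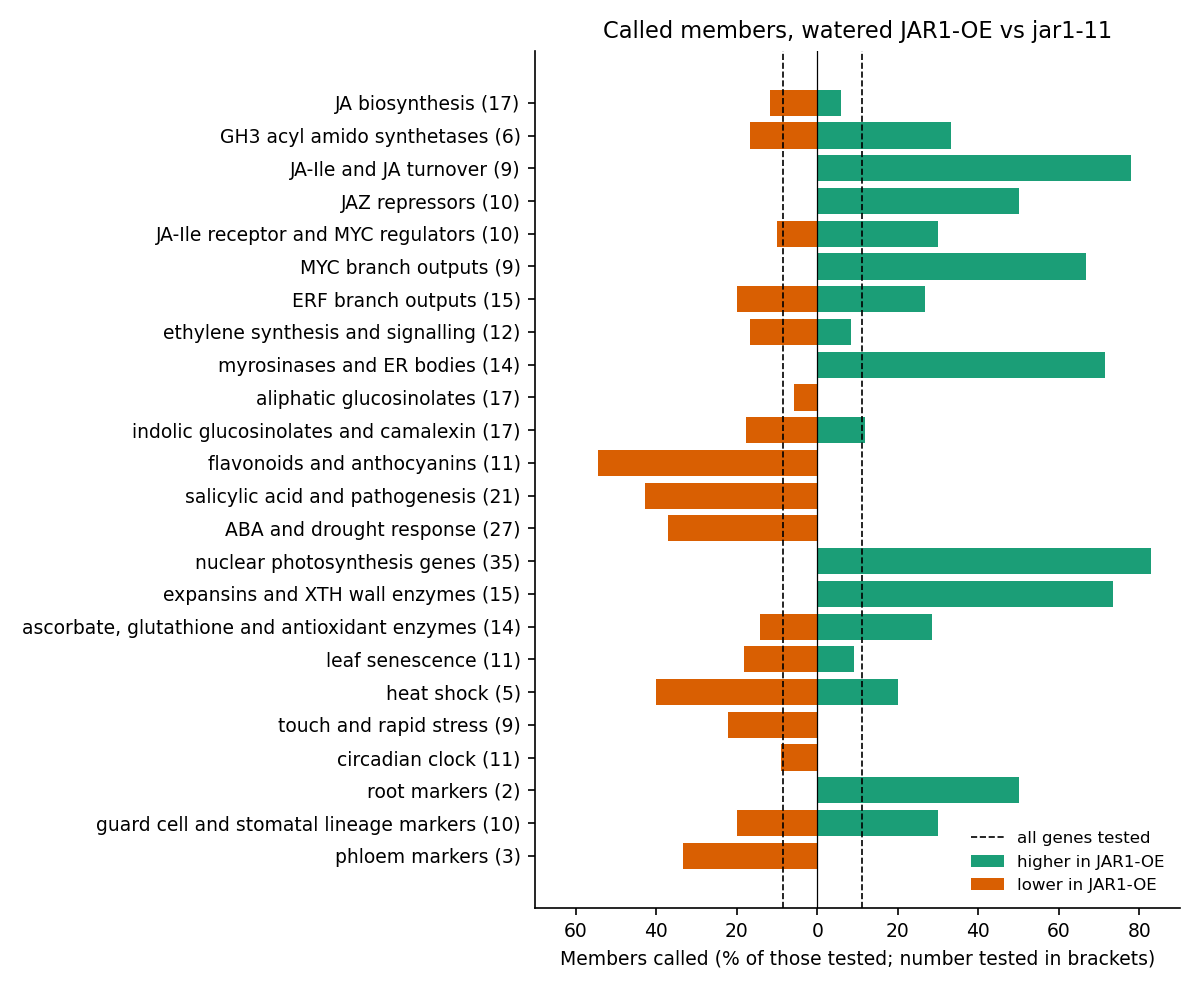
Share of tested members called higher (right) or lower (left) in watered JAR1-OE against jar1-11, in percent, for each gene list. The lists were chosen with earlier results of these data known. The dashed lines mark the shares over all genes tested, 11.2% higher and 8.39% lower; the photosynthesis bar (29 of 35) and the jasmonate turnover bar (7 of 9) reach farthest to the right.

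Of 17 tested genes that make jasmonic acid 1 was called higher and 2 lower, beside 11.2% and 8.39% of all genes tested, with a median log2 fold change of -0.07. LOX2, the main leaf lipoxygenase of the pathway, stood at 359.9, 321 and 409 CPM in jar1-11 and 376, 668 and 418 CPM in JAR1-OE. The groups overlapped, with JAR1-OE library 2 above the rest (log2 fold change 0.42 ± 0.19, adjusted p = 0.136). AOC1, an allene oxide cyclase, was at 10.9, 15.5 and 15.1 CPM in jar1-11 and 14.8, 33 and 28.3 CPM in JAR1-OE and was called higher although the groups overlapped (log2 fold change 0.88 ± 0.25, adjusted p = 0.0257). OPCL1 (log2 fold change -0.56, adjusted p = 0.0139) and AIM1 (log2 fold change -0.39, adjusted p = 0.0452), which act in the oxidation steps that shorten the side chain, were lower in JAR1-OE. The call of OPCL1 was lost without jar1-11 library 3 (adjusted p = 0.0509), that of AOC1 without jar1-11 library 1 or JAR1-OE library 2 or 3 (adjusted p 0.08 to 0.103) and that of AIM1 without jar1-11 library 1, 2 or 3 or JAR1-OE library 1 or 3 (adjusted p 0.084 to 0.162). AOC2, another cyclase, was called lower without JAR1-OE library 2 (adjusted p = 0.0232). The count of lower members was 0 without jar1-11 library 3, 1 without jar1-11 library 1 or 2 or JAR1-OE library 1 or 3, and 4 without JAR1-OE library 2. The count of higher members was 0 without JAR1-OE library 2 or 3. In the wider fits the calls of AIM1 and OPCL1 were lost both with 9 and with 18 libraries (adjusted p 0.0743 to 0.192), and the call of AOC1 with 18 libraries (adjusted p = 0.114). Among other alternatives, the call was lost for AIM1 with the replicate number as a block (adjusted p = 0.0544) and under upper-quartile scaling (adjusted p = 0.0521).

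JAR1 belongs to the GH3 family, some of whose other members join amino acids to auxin. Of 6 tested members, JAR1 included, 2 were called higher and 1 lower, beside 11.2% and 8.39% of all genes tested. DFL2, another GH3 gene, was at 41, 39.3 and 47.1 CPM in jar1-11 and 19.2, 29.9 and 23.4 CPM in JAR1-OE. All 3 JAR1-OE libraries lay below jar1-11 (log2 fold change -0.82 ± 0.16, adjusted p = 0.00359). GH3.3, an auxin-conjugating member, was called higher with overlapping groups, at 4.59, 8.33 and 12.3 CPM against 21.6, 10.2 and 21.2 CPM (log2 fold change 1.14 ± 0.33, adjusted p = 0.0264). Its call was lost without jar1-11 library 1 or 2 or JAR1-OE library 1 or 3 (adjusted p 0.0685 to 0.113). The count of higher members was 1 without JAR1-OE library 1 or 3, 4 without the filter on low counts and 5 without JAR1-OE library 2. GH3.5 and GH3.6 were among those 5, with adjusted p = 0.00422 and 0.0149. The calls of DFL2 and GH3.3 were lost in the wider fits with 18 libraries (adjusted p 0.0756 to 0.199).

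Enzymes that remove JA-Ile or jasmonic acid were higher in JAR1-OE where they differed. Of 9 tested turnover genes 7 were called higher and 0 lower, with a median log2 fold change of 1.69. ILL6, an amidohydrolase that cleaves JA-Ile, was at 5.4, 5.11 and 6.05 CPM in jar1-11 and 26.7, 24.3 and 31.9 CPM in JAR1-OE (log2 fold change 2.33 ± 0.18, adjusted p = 6.98e-06). AT5G05600, annotated as a 2-oxoglutarate and Fe(II)-dependent oxygenase, was at 9.48, 7.01 and 8.41 CPM against 22.2, 35.4 and 24 CPM (log2 fold change 1.69 ± 0.21, adjusted p = 0.000169). In both genes the lines were separate. JRG21, jasmonate-regulated gene 21, was at 0.51, 0.73 and 1.85 CPM in jar1-11 and 15.1, 4.34 and 8.26 CPM in JAR1-OE (log2 fold change 3.27 ± 0.52, adjusted p = 0.000869), and its log2 fold change was 3.91 without jar1-11 library 3. AT2G38240, a further oxygenase of this kind, rose from 0.102 to 0.292 CPM to 1.81 to 4.65 CPM (log2 fold change 3.95, adjusted p = 0.00102). JMT, which methylates jasmonic acid, rose as well (log2 fold change 2.40, adjusted p = 0.00401), as did the amidohydrolase IAR3 (log2 fold change 0.57, adjusted p = 0.0112) and the hydroxyjasmonate sulfotransferase ST2A (log2 fold change 0.73, adjusted p = 0.0367). The call of IAR3 was lost without jar1-11 library 2 (adjusted p = 0.0573) and that of ST2A without jar1-11 library 1 or 2 or JAR1-OE library 2 or 3 (adjusted p 0.0739 to 0.114). The cytochrome P450 genes that oxidise JA-Ile were not called: CYP94C1 was at 2.75, 1.75 and 1.01 CPM against 3.2, 2.95 and 3.35 CPM (adjusted p = 0.218) and CYP94B3 at 0.408, 3.65 and 3.03 CPM against 0.581, 1.22 and 1.68 CPM (adjusted p = 0.362). Fitted with more libraries, the calls of IAR3 and ST2A were lost both with 9 and with 18 libraries (adjusted p 0.0529 to 0.235).

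Of 10 tested JAZ repressor genes 5 were called higher and 0 lower, with a median of 0.82. JAZ9 was at 46.9, 46.3 and 43 CPM in jar1-11 and 101, 124 and 112 CPM in JAR1-OE, with no overlap (log2 fold change 1.302 ± 0.12, adjusted p = 2.86e-05). JAZ10, a repressor known to limit the response, was at 0.815, 1.17 and 1.51 CPM in jar1-11 and 11.5, 9.38 and 7.61 CPM in JAR1-OE (log2 fold change 3.06 ± 0.33, adjusted p = 8.03e-05). JAZ3 (log2 fold change 0.98, adjusted p = 0.00146), JAZ2 (log2 fold change 0.70, adjusted p = 0.00378) and JAZ5 (log2 fold change 1.29, adjusted p = 0.00988) rose by smaller amounts, and JAZ5 lost its call without JAR1-OE library 3 (log2 fold change 1.08, adjusted p = 0.0625). JAZ12, at 140.0, 142 and 153 CPM against 169, 169 and 165 CPM, and JAZ6, at 65.7, 60.9 and 56.7 CPM against 53.7, 91.7 and 70.7 CPM, were not called. Among the promoter windows of these 10 genes a G-box was found in 3 and a T/G box in 4. JAZ9 and JAZ10 held neither, and the uncalled JAZ12 and JAZ6 were among those with a T/G box. The calls of JAZ2 and JAZ5 were lost in the wider fits with 18 libraries (adjusted p 0.107 to 0.108).

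Receptor and MYC genes moved in both directions, with 3 of 10 called higher and 1 lower, beside 11.2% and 8.39% of all genes tested. MYC2, the main transcription factor of the pathway, was at 48.4, 48.1 and 47.9 CPM in jar1-11 and 90.8, 113 and 109.5 CPM in JAR1-OE, so that the JAR1-OE libraries lay well above a narrow jar1-11 range (log2 fold change 1.12 ± 0.12, adjusted p = 9.26e-05). MYC4, a partner with related functions, was at 50.2, 64.3 and 59.8 CPM in jar1-11 and 36.6, 38 and 36.4 CPM in JAR1-OE. It was lower in every JAR1-OE library (log2 fold change -0.65 ± 0.13, adjusted p = 0.00347). JAM1, a related factor that represses MYC2 targets, was higher (log2 fold change 0.65, adjusted p = 0.0101), as was the corepressor TPL (log2 fold change 0.44, adjusted p = 0.0361), whose call was lost without jar1-11 library 2 or 3 or JAR1-OE library 1, 2 or 3 (adjusted p 0.0708 to 0.139). MYC3 (log2 fold change -0.15, adjusted p = 0.426) and the adaptor NINJA (-0.10, adjusted p = 0.621) were not called. In the wider fits the calls of MYC4 and TPL were lost both with 9 and with 18 libraries (adjusted p 0.0606 to 0.11). No call was made for TPL with DESeq2 (adjusted p = 0.072).

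The MYC branch held the storage protein genes VSP1 and VSP2, 2 of the 10 largest rises. Of 9 tested members 6 were called higher and 0 lower, with a median of 1.24, and the count was 6 without any 1 of the 6 libraries. VSP1 was at 0, 0.292 and 0.504 CPM in jar1-11 and 129, 108 and 93.9 CPM in JAR1-OE, from 5 reads in the 3 jar1-11 libraries and 2237 in JAR1-OE. VSP2 was at 1.12, 3.8 and 0.841 CPM in jar1-11 and 138, 71.9 and 133 CPM in JAR1-OE. For both genes the lowest JAR1-OE library was many times above the highest jar1-11 library (VSP1 8.85 ± 0.33, adjusted p = 8.04e-09; VSP2 5.92 ± 0.37, adjusted p = 1.39e-06). jar1-11 had few reads of both, and the log2 fold change of VSP1 was 8.07 without jar1-11 library 1 and 9.65 without jar1-11 library 3, and that of VSP2 was 6.79 without jar1-11 library 2. Each of these values lies outside the ± of its gene. The sequences of these neighbouring genes are alike, and reads were counted where they were unique. NATA1, which acetylates ornithine, was at 7.85, 13.1 and 12.1 CPM in jar1-11 and 64.6, 62.2 and 32.8 CPM in JAR1-OE (log2 fold change 2.29 ± 0.26, adjusted p = 0.000104). NAC019, a transcription factor gene, was at 10.2, 11.8 and 10.8 CPM against 30.5, 25.7 and 20.9 CPM (log2 fold change 1.24 ± 0.18, adjusted p = 0.000442). TPS04, which makes a volatile terpenoid alcohol, rose from 0, 1.02 and 0.672 CPM to 4.21, 7.47 and 5.81 CPM (log2 fold change 3.49, adjusted p = 0.00147), with a log2 fold change of 2.73 without jar1-11 library 1 and 4.37 without jar1-11 library 2. CLH1, a chlorophyllase gene, was higher by a smaller amount (log2 fold change 0.66, adjusted p = 0.0121). CORI3 and TAT3, both induced by coronatine or wounding in other settings, overlapped between the lines (adjusted p = 0.448 and 0.431). The call of CLH1 was lost in the wider fits with 18 libraries (adjusted p = 0.214).

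The ERF branch, which answers to jasmonate together with ethylene, was split. Of 15 tested members 4 were called higher and 3 lower, beside 11.2% and 8.39% of all genes tested. PDF1.3, a plant defensin, was at 15.8, 5.99 and 23.7 CPM in jar1-11 and 75.2, 103 and 66.7 CPM in JAR1-OE (log2 fold change 2.44 ± 0.31, adjusted p = 0.000246). THI2.1, a thionin, was at 0.51, 1.17 and 2.19 CPM against 7.41, 8.86 and 7.87 CPM (log2 fold change 2.74 ± 0.39, adjusted p = 0.000471). CHI-B, a basic chitinase, was at 9.07, 7.74 and 7.06 CPM against 26.9, 18.1 and 15.9 CPM (log2 fold change 1.33 ± 0.22, adjusted p = 0.00103). PDF1.4 was also higher (log2 fold change 3.06, adjusted p = 0.00224), resting in part on JAR1-OE library 1, without which its log2 fold change was 2.13. ORA59, the transcription factor gene that drives defensin genes, was lower, at 137, 105 and 165 CPM in jar1-11 and 44.3, 79.6 and 72.6 CPM in JAR1-OE, with no overlap (log2 fold change -1.05 ± 0.21, adjusted p = 0.00328). The acyltransferase ACT (log2 fold change -1.79, adjusted p = 0.0311) and the transporter gene DTX18 (log2 fold change -0.75, adjusted p = 0.0272) were lower too. The call of ACT was lost without jar1-11 library 3 or JAR1-OE library 1 or 3 (adjusted p 0.0822 to 0.159), and its log2 fold change was -2.85 without JAR1-OE library 2 and -1.17 without jar1-11 library 3. That of DTX18 was lost without jar1-11 library 3 or JAR1-OE library 1 or 3 (adjusted p 0.0941 to 0.12). The count of lower members was 1 without jar1-11 library 3 or without JAR1-OE library 1 or 3, and the count of higher members was 7 without the filter on low counts. PDF1.2A, at 65.9, 73.6 and 220.4 CPM against 255, 393 and 158 CPM, was not called (adjusted p = 0.0533) but was called higher without jar1-11 library 3 or JAR1-OE library 3 (adjusted p 0.00168 to 0.0389), and PDF1 family members share sequence, which leaves their unique reads uncertain. Of 12 tested ethylene genes 1 was called higher (EBF1, an F-box gene that limits the ethylene response, 0.48) and 2 lower (ACO4 of ethylene synthesis, -0.79, and the receptor ETR1, -0.43). Set beside 11.2% and 8.39% of all genes tested, such counts are no result about the ethylene genes as a group. The lower calls were 1 without jar1-11 library 1 or 2 and 0 without jar1-11 library 3 or JAR1-OE library 1 or 3. The call of ACO4 was lost without jar1-11 library 3 or JAR1-OE library 1 or 3 (adjusted p 0.0811 to 0.162), that of ETR1 without jar1-11 library 1, 2 or 3 or JAR1-OE library 1 or 3 (adjusted p 0.0589 to 0.147) and that of EBF1 without jar1-11 library 2 or JAR1-OE library 3 (adjusted p 0.0686 to 0.0764). Fitted with more libraries, the calls of ACO4, DTX18 and ETR1 were lost both with 9 and with 18 libraries (adjusted p 0.0526 to 0.317), and the calls of ACT and CHI-B with 18 libraries (adjusted p 0.068 to 0.0851). Among other alternatives, the call was lost for ACO4, ACT and ETR1 with DESeq2 (adjusted p 0.0856 to 0.185) and for ETR1 under upper-quartile scaling (adjusted p = 0.0539).

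Myrosinases, which break glucosinolates into toxic products, and the ER bodies that store related β-glucosidases held genes higher in JAR1-OE and none lower. Of 14 tested members 10 were called higher and 0 lower, with a median of 1.59. TGG1 was at 330.1, 253 and 199 CPM in jar1-11 and 1109, 1028 and 1109.8 CPM in JAR1-OE (log2 fold change 2.05 ± 0.17, adjusted p = 1.29e-05). TGG2 was at 247, 211 and 168 CPM in jar1-11 and 878, 729.9 and 851 CPM in JAR1-OE (log2 fold change 1.97 ± 0.16, adjusted p = 8.58e-06). In both myrosinase genes every JAR1-OE library was far above any jar1-11 library. NSP1, a nitrile-specifier protein that redirects glucosinolate breakdown, was at 42.9, 47.6 and 46.4 CPM against 140.3, 128 and 126 CPM (log2 fold change 1.53 ± 0.12, adjusted p = 6.98e-06). BGLU18, a β-glucosidase of leaf ER bodies, was at 242, 275 and 300.4 CPM against 791, 901 and 880.0 CPM (log2 fold change 1.66 ± 0.13, adjusted p = 9.44e-06). MBP2, a myrosinase-binding protein, was at 0.51, 3.36 and 3.19 CPM against 41, 28 and 32.8 CPM (log2 fold change 3.97 ± 0.36, adjusted p = 2.22e-05), and its log2 fold change was 3.36 without jar1-11 library 1. NAI2, an ER body protein, had 1 read in the 3 jar1-11 libraries together and 125 in JAR1-OE (pooled ratio 139-fold, 95% interval 24.4 to 5517; adjusted p = 0.00027). The ER body regulator NAI1 (log2 fold change 2.90, adjusted p = 0.000891), PBP1 (log2 fold change 1.78, adjusted p = 0.000109), TSA1 (log2 fold change 1.13, adjusted p = 0.00018) and MBP1 (log2 fold change 0.72, adjusted p = 0.0427) were also called. The call of MBP1 was lost without jar1-11 library 1 or 2 or JAR1-OE library 2 or 3 (adjusted p 0.0897 to 0.15). ESM1 (-0.12, adjusted p = 0.602) and NSP5 (-0.14, adjusted p = 0.497) were not. The call of MBP1 was lost in the wider fits both with 9 and with 18 libraries (adjusted p 0.165 to 0.414). No call was made for MBP1 with DESeq2 (adjusted p = 0.171).

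Of 17 tested aliphatic glucosinolate genes 0 were called higher and 1 lower, with a median of -0.14, beside 11.2% and 8.39% of all genes tested. The lower gene was MAM3, a chain-elongation enzyme, at 23.9, 25.3 and 31.8 CPM in jar1-11 and 7.55, 14.2 and 9.29 CPM in JAR1-OE (log2 fold change -1.39 ± 0.21, adjusted p = 0.000744). There were 2 lower members without jar1-11 library 1 and 3 without JAR1-OE library 2, without the filter on low counts or with the replicate number as a block. Of 17 tested indolic and camalexin genes 2 were called higher and 3 lower, beside the same shares of all genes tested. CYP81F4, which modifies indole glucosinolates, had 0 reads in all 3 jar1-11 libraries and stood at 7.84, 5.73 and 6.32 CPM in JAR1-OE, which is at least 50.3-fold higher when a floor of 3 reads in the group stands for 0. CYP79B3, an early enzyme on tryptophan, was at 30, 37.1 and 25.7 CPM against 43.7, 59.4 and 75 CPM (log2 fold change 0.94 ± 0.19, adjusted p = 0.00373). MYB51, a regulator of this branch, was lower, at 27.9, 35.6 and 48.6 CPM against 14.8, 17.2 and 19.5 CPM (log2 fold change -1.11 ± 0.20, adjusted p = 0.00183), as were the sulfotransferase SOT16 (log2 fold change -0.61, adjusted p = 0.00304) and the camalexin enzyme CYP71A13 (log2 fold change -1.45, adjusted p = 0.0227). The last call was lost without jar1-11 library 2 or 3 or JAR1-OE library 2 or 3 (adjusted p 0.0529 to 0.1). In the wider fits the call of CYP71A13 was lost both with 9 and with 18 libraries (adjusted p 0.0649 to 0.295), and the calls of CYP79B3 and SOT16 with 18 libraries (adjusted p 0.086 to 0.103). Calls were also lost for CYP71A13 with limma-voom (adjusted p = 0.0948).

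**Figure D3:**
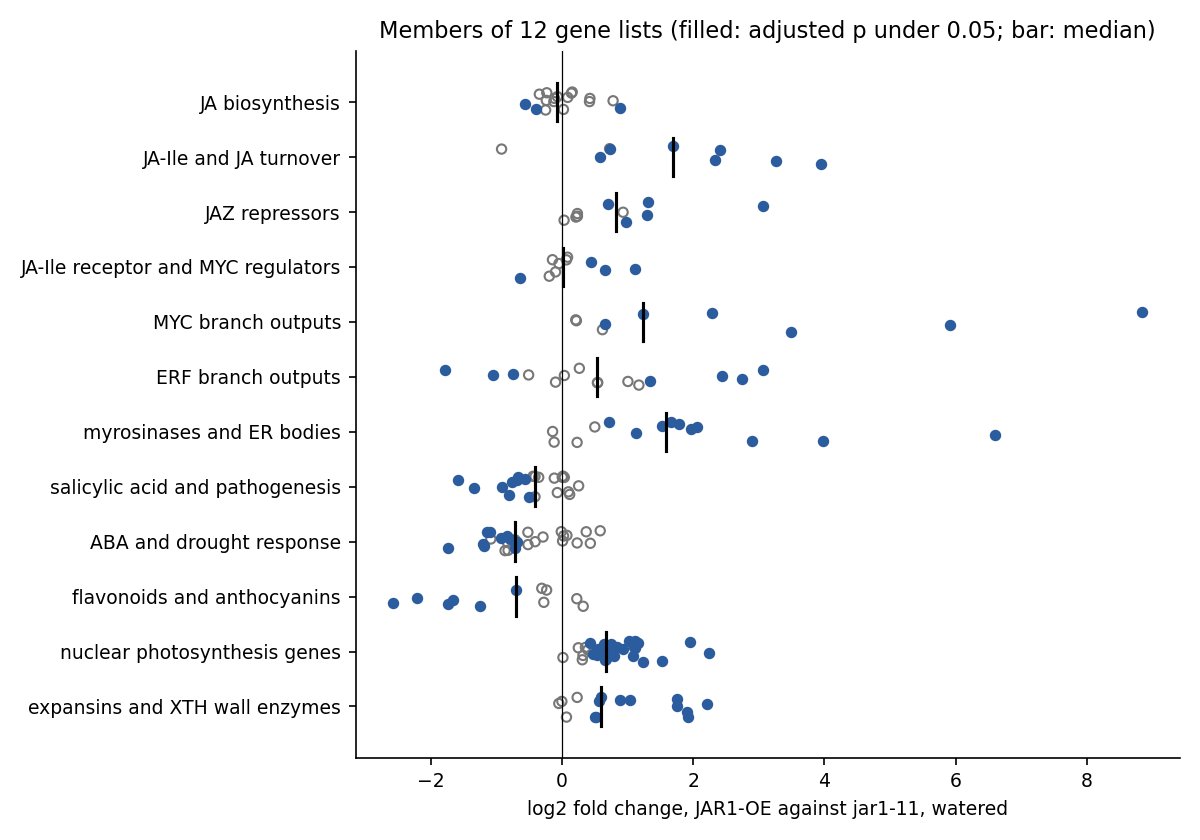
Log2 fold change of JAR1-OE against jar1-11, watered, for each tested member of 12 gene lists. Filled points are called at an adjusted p under 0.05, open points are not, and the bar is the list's median. The 7 filled points of jasmonate turnover and the 6 of the MYC outputs all lie above 0, while the filled points of ABA, salicylic acid and flavonoids lie below it.

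Flavonoid genes were lower in JAR1-OE where they differed. Of 11 tested members 0 were called higher and 6 lower, with a median of -0.70. DFR, an enzyme of anthocyanin synthesis, was at 42.8, 28 and 18 CPM in jar1-11 and 9.73, 11.6 and 7.22 CPM in JAR1-OE (log2 fold change -1.67 ± 0.28, adjusted p = 0.00117). GSTF12, which carries anthocyanins to the vacuole, was at 31.3, 14.8 and 14.8 CPM against 4.07, 5.04 and 1.55 CPM (log2 fold change -2.58 ± 0.38, adjusted p = 0.000521). For both genes all 3 JAR1-OE libraries were below jar1-11, of which library 1 was the highest. UGT75C1 (log2 fold change -2.22, adjusted p = 0.00232), LDOX (log2 fold change -1.74, adjusted p = 0.00833), the regulator MYB75 (log2 fold change -1.25, adjusted p = 0.0462) and CHS, which opens the pathway (log2 fold change -0.70, adjusted p = 0.038), were lower too. Without jar1-11 library 1 the count was 3, and LDOX then stood at -1.23 (adjusted p = 0.0596). The call of CHS was lost without jar1-11 library 1 or 2 or JAR1-OE library 1 or 3 (adjusted p 0.0718 to 0.158) and that of MYB75 without jar1-11 library 1, 2 or 3 or JAR1-OE library 1 or 3 (adjusted p 0.0682 to 0.166). F3H and the flavonol enzyme FLS1 were not called (adjusted p = 0.433 and 0.34). The calls of CHS and MYB75 were lost in the wider fits both with 9 and with 18 libraries (adjusted p 0.116 to 0.141). Among other alternatives, the call was lost for MYB75 with the replicate number as a block (adjusted p = 0.0633).

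Salicylic acid genes were lower where they differed. Of 21 tested members 0 were called higher and 9 lower, with a median of -0.41. ICS1, which makes the precursor of salicylic acid, was at 33.6, 39.7 and 35 CPM in jar1-11 and 23.4, 21.9 and 16.9 CPM in JAR1-OE (log2 fold change -0.80 ± 0.15, adjusted p = 0.00283). WRKY54 was at 27.5, 31.3 and 38.7 CPM against 18, 16.8 and 16.3 CPM (log2 fold change -0.92 ± 0.16, adjusted p = 0.00146) and WRKY70 at 192, 159.8 and 225 CPM against 129, 105 and 124 CPM (log2 fold change -0.68 ± 0.14, adjusted p = 0.00504); both encode transcription factors of this response. The JAR1-OE libraries lay below jar1-11 in all 3 genes. The salicylic acid receptor gene NPR3 (log2 fold change -0.67, adjusted p = 0.00505) and the immune regulator SAG101 (log2 fold change -0.56, adjusted p = 0.00616) followed, with NIMIN1 (-1.59), EDS5 (-0.77), FMO1 (-1.34) and PAD4 (-0.51) the other called members. Without JAR1-OE library 3 the count was 5, and in the wider fits it was 4 with 9 libraries and 1 with 18. The call of NIMIN1 was lost without jar1-11 library 3 or JAR1-OE library 3 (adjusted p 0.0614 to 0.0655), that of EDS5 without jar1-11 library 2 or 3 or JAR1-OE library 1 or 3 (adjusted p 0.0559 to 0.0845), that of FMO1 without jar1-11 library 1, 2 or 3 or JAR1-OE library 1 or 3 (adjusted p 0.0559 to 0.0966) and that of PAD4 without jar1-11 library 1 or 2 or JAR1-OE library 2 or 3 (adjusted p 0.0926 to 0.147). The pathogenesis genes PR2, at 738, 386 and 298 CPM against 843, 360.3 and 316 CPM, and PR5, at 266, 127 and 86.6 CPM against 360.2, 109 and 103 CPM, were not called, and library 1 of each line was the highest in both. Fitted with more libraries, the calls of EDS5, FMO1, NIMIN1, PAD4 and SAG101 were lost both with 9 and with 18 libraries (adjusted p 0.0591 to 0.522), and the calls of ICS1, NPR3 and WRKY70 with 18 libraries (adjusted p 0.115 to 0.351). No call was made for PAD4 with DESeq2 (adjusted p = 0.0508) and under upper-quartile scaling (adjusted p = 0.0541).

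Genes that respond to abscisic acid and drought were lower in watered JAR1-OE where they differed. Of 27 tested members 0 were called higher and 10 lower, with a median of -0.72. RD29A, a widely used drought and cold reporter gene, was at 347, 287 and 319.7 CPM in jar1-11 and 63.6, 116 and 106 CPM in JAR1-OE, with no overlap (log2 fold change -1.74 ± 0.19, adjusted p = 8.65e-05). The dehydrin genes LTI30, at 138, 142 and 97.2 CPM against 46.6, 66.4 and 52.3 CPM (log2 fold change -1.19 ± 0.17, adjusted p = 0.000415), ERD10, at 481, 476 and 508 CPM against 182, 293 and 292 CPM (log2 fold change -0.93 ± 0.17, adjusted p = 0.00194), and COR47 (log2 fold change -0.72, adjusted p = 0.00638) were lower as well. COR15A, which protects chloroplast membranes in the cold, was at 999.98, 573 and 723 CPM against 354, 484 and 232 CPM (log2 fold change -1.10 ± 0.24, adjusted p = 0.00635). KIN2 (-0.80), HB7 (-0.68), GOLS2 (-1.14) and the phosphatase genes AHG3 (-0.84) and HAI2 (-1.21), which damp the hormone's signal, made up the 10. RD22, at 987, 891 and 843 CPM against 467, 856 and 572 CPM, and COR15B, at 259.9, 195 and 319 CPM against 161, 216 and 163 CPM, were not called (adjusted p = 0.0677 and 0.0528); RD22 was called lower without JAR1-OE library 2 (adjusted p = 0.00156) and COR15B without jar1-11 library 2 or JAR1-OE library 2 (adjusted p 0.0153 to 0.0187). Without JAR1-OE library 1 or 3 the count was 6. The call of KIN2 was lost without JAR1-OE library 3 (adjusted p = 0.0556), that of HB7 without jar1-11 library 1, 2 or 3 or JAR1-OE library 1 or 3 (adjusted p 0.0516 to 0.135) and that of GOLS2 without jar1-11 library 3 or JAR1-OE library 1 (adjusted p 0.0702 to 0.13). The calls of AHG3 and HAI2 were lost without jar1-11 library 3 or JAR1-OE library 1 or 3 (adjusted p 0.0665 to 0.0917) and without jar1-11 library 2 or 3 or JAR1-OE library 1 or 3 (adjusted p 0.057 to 0.104), and HAI2 stood at -1.91 without JAR1-OE library 2. The call of HB7 was lost in the wider fits both with 9 and with 18 libraries (adjusted p 0.0638 to 0.0824), and the call of GOLS2 with 9 libraries (adjusted p = 0.0676), and the call of KIN2 with 18 libraries (adjusted p = 0.0541).

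Photosynthesis genes of the nucleus were the list with the most calls. Of 35 tested members 29 were called higher and 0 lower, with a median of 0.67, and 22 to 30 were called higher when single libraries were left out. PSBO2, a subunit of the oxygen-evolving complex, was at 36.2, 27.6 and 29.9 CPM in jar1-11 and 149.8, 100.2 and 113 CPM in JAR1-OE (log2 fold change 1.95 ± 0.16, adjusted p = 1.32e-05). PSAN of photosystem I was at 378, 394 and 359.8 CPM against 781, 715 and 906 CPM (log2 fold change 1.09 ± 0.13, adjusted p = 0.000163). The groups did not overlap in either gene. RBCS3B (log2 fold change 1.52, adjusted p = 7.43e-05) and RBCS1A (log2 fold change 1.16, adjusted p = 0.000401) of Rubisco, and LHCB1.3 (log2 fold change 1.24, adjusted p = 0.000399) of the light-harvesting complex, were higher, but these families hold near-identical copies that share reads. PSBR and PSAD-1 were higher in each JAR1-OE library than in any jar1-11 library and were not called (adjusted p = 0.145 and 0.0737). Genes of the chloroplast genome leaned the same way, with 27 of 70 tested called higher and 0 lower and a median of 0.39, whereas 0 of 16 tested mitochondrial genes were higher and 2 lower. The chloroplast share of all reads was 4.83 to 5.62% in jar1-11 and 5.12 to 6.27% in JAR1-OE, so the ranges overlapped. The libraries were made with a 3′ mRNA kit, and whether its reads measure the levels of organelle transcripts was not tested.

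Wall-loosening genes were higher in JAR1-OE where they differed. Of 15 tested expansins and xyloglucan enzymes 11 were called higher and 0 lower, with a median of 0.59. EXPA3 was at 5.71, 5.99 and 5.21 CPM in jar1-11 and 18.9, 18.1 and 26.6 CPM in JAR1-OE (log2 fold change 1.91 ± 0.20, adjusted p = 7.3e-05). EXPA10 was at 2.14, 3.94 and 1.68 CPM against 14.8, 8.34 and 12.5 CPM (log2 fold change 2.21 ± 0.32, adjusted p = 0.000492). Both encode expansins, which loosen cell walls during growth, and neither overlapped between the lines. The xyloglucan enzyme genes XTH16, at 11.7, 8.62 and 5.38 CPM against 34.7, 25.9 and 28 CPM (log2 fold change 1.75 ± 0.23, adjusted p = 0.000257), and XTH9, at 89.6, 70.5 and 70.6 CPM against 179, 130.3 and 164 CPM (log2 fold change 1.03 ± 0.15, adjusted p = 0.000451), were higher too, as was EXPA6 (log2 fold change 0.88, adjusted p = 0.00207). EXPA1 and XTH24 showed wide overlap, at 161, 301 and 322 CPM against 175, 358 and 224 CPM and 176, 133 and 279 CPM against 130.4, 265 and 192 CPM. The count of higher members was 6 without JAR1-OE library 3, and in the wider fits 7 with 9 libraries and 4 with 18. In the wider fits the calls of EXPA6 and XTH9 were lost with 18 libraries (adjusted p 0.0726 to 0.116).

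Antioxidant genes were mixed. Of 14 tested members 4 were called higher and 2 lower, beside 11.2% and 8.39% of all genes tested. The superoxide dismutase genes CSD2, at 142, 117 and 162 CPM against 279, 246 and 241 CPM (log2 fold change 0.86 ± 0.14, adjusted p = 0.00092), and CSD1, at 379, 299 and 263 CPM against 558, 488 and 484 CPM (log2 fold change 0.70 ± 0.15, adjusted p = 0.0049), were higher, with DHAR1 (0.46), which recycles ascorbate, and VTC5 (0.58), which acts in its synthesis. CAT2, the main leaf catalase of photorespiration, was lower, at 83.4, 107 and 98.8 CPM against 48.8, 62.9 and 56.1 CPM (log2 fold change -0.78 ± 0.14, adjusted p = 0.00164), as was APX1 (log2 fold change -0.41, adjusted p = 0.0333). The call of APX1 was lost without jar1-11 library 1 or 2 or JAR1-OE library 1 or 3 (adjusted p 0.0629 to 0.107), that of DHAR1 without jar1-11 library 1 or 2 or JAR1-OE library 2 or 3 (adjusted p 0.0518 to 0.0804) and that of VTC5 without jar1-11 library 2 (adjusted p = 0.0501). The higher count was 2 without jar1-11 library 2 or with 9 libraries and 0 with 18. The lower count was 1 without jar1-11 library 1 or 2 or JAR1-OE library 1 or 3, and 4 without JAR1-OE library 2. The calls of APX1, CSD1 and DHAR1 were lost in the wider fits both with 9 and with 18 libraries (adjusted p 0.0817 to 0.203), and the calls of CSD2 and VTC5 with 18 libraries (adjusted p 0.127 to 0.183). No call was made for APX1 with the replicate number as a block (adjusted p = 0.0578).

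Of 11 tested senescence genes 1 was called higher and 2 lower, beside 11.2% and 8.39% of all genes tested. Counts of heat shock, touch and clock genes below stand beside the same shares. The dark-induced gene SEN1 (AT4G35770) was at 58.5, 53.9 and 72.8 CPM against 214, 159.8 and 301 CPM (log2 fold change 1.87 ± 0.20, adjusted p = 8.42e-05). PPH, which acts in chlorophyll breakdown (-0.56), and SAG21 (-0.51) were lower, with the call of PPH lost without JAR1-OE library 3 (adjusted p = 0.0531) and that of SAG21 without jar1-11 library 3 or JAR1-OE library 3 (adjusted p 0.0776 to 0.0946). There were 4 lower members without jar1-11 library 2 and 1 without jar1-11 library 3 or JAR1-OE library 3. Of 5 tested heat shock genes 2 were lower, namely the chaperone genes HSP90.1, at 25.1, 25.9 and 35.6 CPM against 6.39, 8.86 and 11.2 CPM (log2 fold change -1.69 ± 0.21, adjusted p = 0.00022), and AT3G12580, an HSP70, at 17.2, 26.9 and 24.2 CPM against 3.05, 8.69 and 7.74 CPM (log2 fold change -1.81 ± 0.29, adjusted p = 0.00092), and 1 was higher (HSP18.2, 1.43), a call lost without jar1-11 library 1, 2 or 3 or JAR1-OE library 2 or 3 (adjusted p 0.0504 to 0.101). Of 9 tested touch genes WRKY33, a defence regulator (log2 fold change -0.75, adjusted p = 0.00307), and the calmodulin-like TCH3 (log2 fold change -0.64, adjusted p = 0.00823) were lower and none was higher, with 1 higher without JAR1-OE library 2. TCH2 was called lower without jar1-11 library 1 (adjusted p = 0.0391) and the zinc finger gene ZAT10 without JAR1-OE library 3 (adjusted p = 0.00548). Of 11 tested clock genes LNK1, at 15.6, 16.9 and 24 CPM against 6.1, 8.34 and 7.1 CPM, was lower (log2 fold change -1.39 ± 0.21, adjusted p = 0.000712) and none was higher, with 2 lower without JAR1-OE library 3. Fitted with more libraries, the calls of HSP18.2 and SAG21 were lost both with 9 and with 18 libraries (adjusted p 0.0528 to 0.18), and the calls of TCH3 and WRKY33 with 18 libraries (adjusted p 0.14 to 0.297).

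Markers of other tissues and of single leaf cell types were read in the same way. Their counts of calls stand beside 11.2% higher and 8.39% lower over all genes tested. The summed level of 6 root markers was 0.841 to 2.48 CPM in jar1-11 and 8.69 to 18.16 CPM in JAR1-OE, with 3 of the 6 at 0 in all 6 libraries. Of 2 tested root markers 1 was called, PYK10, the β-glucosidase of root ER bodies, with 0 reads in jar1-11 and 12.2, 3.3 and 10.3 CPM in JAR1-OE, at least 67.6-fold higher; without JAR1-OE library 3 the nitrate transporter gene NRT2.1 was called too (adjusted p = 0.0180). PYK10 moved with the ER body genes above, and the part of root tissue in those differences was not tested. None of 7 flower markers had enough reads for a test, at summed levels of 2.24 to 2.78 CPM and 2.06 to 5.73 CPM. Of 10 tested guard cell and stomatal lineage markers 3 were higher and 2 lower. TMM, a receptor of the lineage, was at 2.55, 2.19 and 1.68 CPM against 10.2, 6.25 and 8.52 CPM (log2 fold change 1.93 ± 0.30, adjusted p = 0.000721), and the signal peptide gene EPF2 (log2 fold change 1.79, adjusted p = 0.00658) and the protease gene SDD1 (log2 fold change 4.12, adjusted p = 0.000746; 5.10 without jar1-11 library 1) were higher too. The channel genes of mature guard cells ALMT12 (log2 fold change -1.39, adjusted p = 0.00922) and KAT1 (log2 fold change -0.71, adjusted p = 0.0224) were lower, and the call of KAT1 was lost without jar1-11 library 2 or JAR1-OE library 1 (adjusted p 0.083 to 0.102). FAMA, a factor of guard cell fate, was called higher without JAR1-OE library 1 (adjusted p = 0.0222). The summed levels were 75.8 to 82.4 CPM in jar1-11 and 76.0 to 100.7 CPM in JAR1-OE, which overlap. Of 3 tested phloem markers SUC2, a sucrose transporter, was lower (log2 fold change -0.48, adjusted p = 0.0454) with overlapping groups, and the call was lost without jar1-11 library 1 or 2 or JAR1-OE library 1 or 3 (adjusted p 0.11 to 0.197). Phloem sums were 293 to 444 CPM and 269.6 to 304 CPM. The calls of KAT1 and SUC2 were lost in the wider fits both with 9 and with 18 libraries (adjusted p 0.0751 to 0.17), and the call of EPF2 with 18 libraries (adjusted p = 0.0519). Among other alternatives, the call was lost for SUC2 with limma-voom (adjusted p = 0.053) and under upper-quartile scaling (adjusted p = 0.0543).

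The 10 largest rises among genes of at least 10 CPM in the higher line held VSP1 and VSP2 and 8 others. AT1G62500, of the lipid-transfer superfamily, had 0 reads in jar1-11 and stood at 102, 23.62 and 117 CPM in JAR1-OE, at least 646-fold higher. AT2G20870, a cell wall protein precursor, also had 0 reads in jar1-11 and was at 8.86, 15.8 and 5.68 CPM, at least 72.4-fold higher. The lipid transfer gene LTP6 was at 1.22, 0.146 and 0.336 CPM against 43, 9.9 and 32.3 CPM (log2 fold change 5.42 ± 0.60, adjusted p = 9.26e-05). Protodermal factor 1 (PDF1), an epidermal gene, was at 0.917, 1.17 and 0.504 CPM against 48.5, 14.2 and 40.5 CPM (log2 fold change 5.27 ± 0.48, adjusted p = 2.11e-05). AT4G22490, of the lipid-transfer superfamily, was at 1.12, 1.31 and 0 CPM against 53.3, 6.95 and 66.2 CPM (log2 fold change 5.58 ± 0.77, adjusted p = 0.000392), and AT4G29030, a putative membrane lipoprotein, at 1.32, 0.146 and 0 CPM against 83.1, 21.5 and 56.5 CPM (log2 fold change 6.43 ± 0.61, adjusted p = 2.98e-05). In AT1G62500, LTP6, PDF1, AT4G22490 and AT4G29030, JAR1-OE library 2 was well below the other JAR1-OE libraries and still above all of jar1-11. The apyrase gene APY5 rose to 29.3, 13 and 27.1 CPM (log2 fold change 6.36, adjusted p = 6.98e-06) and the 6-phosphogluconolactonase gene PGL5 to 25.1, 15.6 and 15.6 CPM (log2 fold change 6.04, adjusted p = 6.98e-06), each from 6 reads in jar1-11. The log2 fold change of APY5 was 7.41 without jar1-11 library 3. Without jar1-11 library 1 it was 9.12 for AT4G29030, 6.82 for LTP6 and 5.27 for PGL5. In the wider fits the call of AT2G20870 was lost with 18 libraries (adjusted p = 0.0512). No call was made for AT4G22490 with limma-voom (adjusted p = 0.0655).

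Among genes of at least 10 CPM in the higher line the largest fall was that of LTP3. LTP3, a lipid transfer protein gene, was at 303, 312 and 117 CPM in jar1-11 and 10.2, 64.3 and 9.81 CPM in JAR1-OE (log2 fold change -3.16 ± 0.58, adjusted p = 0.00217). HIPP12, a metal-binding protein gene, was at 20.4, 16.5 and 23.7 CPM against 3.05, 3.13 and 1.94 CPM (log2 fold change -2.91 ± 0.24, adjusted p = 1.27e-05). The protein kinase gene CIPK25 was at 16.7, 12.1 and 13.4 CPM against 1.74, 4 and 1.16 CPM (log2 fold change -2.68 ± 0.33, adjusted p = 0.0002). AHP4, a phosphotransmitter of cytokinin signalling, was at 19.3, 10.8 and 15.3 CPM against 0.872, 4.69 and 1.94 CPM (log2 fold change -2.66 ± 0.39, adjusted p = 0.00055). All 3 JAR1-OE libraries lay below jar1-11 in these 4 genes. AT3G28510, a P-loop nucleotide-binding protein (-2.50), AT1G80130, a TPR-like protein (-2.46), the leucine-rich repeat kinase gene AT5G59680 (-2.33), the nicotianamine synthase gene NAS1 (-2.11) and the nitrilase gene NIT4 (-2.10) made up the 10 largest together with GSTF12. Without JAR1-OE library 2 the values were -4.62 for LTP3, -3.29 for CIPK25, -3.40 for AHP4 and -3.12 for AT1G80130, and without jar1-11 library 3 NIT4 was at -1.43.

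The WT libraries place each line against WT. Each line's contrast with WT uses the same 3 WT libraries, so the values are set side by side. WT library 1 stood apart, with a chi-square over its degrees of freedom of 26.8 against library 2 and 27.9 against library 3. Libraries 2 and 3 differed by 6.53. A low count of calls against WT therefore does not show that a line and WT were alike. In watered plants 1613 of 16768 genes tested (9.62%) differed between JAR1-OE and WT, 880 higher (5.25%) and 733 lower (4.37%). Between jar1-11 and WT 9 genes did (0.0537%), 1 higher in jar1-11 (0.00596%) and 8 lower (0.0477%), with 923 at an unadjusted p under 0.05 and 42 by DESeq2. The count for JAR1-OE was 455 without JAR1-OE library 1 or 3. The count for jar1-11 was 5 without jar1-11 library 1, 3 without jar1-11 library 2, 2 without jar1-11 library 3 or WT library 3, and 18 without WT library 1. VSP1 was at 19.3, 11 and 12.6 CPM in WT, between the lines. On the log2 scale against WT, VSP1 differed by 2.97 in JAR1-OE (adjusted p = 0.000153) and by -5.87 in jar1-11 (adjusted p = 9.14e-05). JAZ10 differed by 0.86 in JAR1-OE (adjusted p = 0.0679) and by -2.20 in jar1-11 (adjusted p = 0.0396). TGG1 was at 193, 322 and 311 CPM in WT, within reach of jar1-11, and TGG1 differed by 1.97 in JAR1-OE (adjusted p = 0.0005) and by -0.08 in jar1-11 (adjusted p = 0.972). EXPA3 differed by 1.86 in JAR1-OE (adjusted p = 0.000639) and by -0.05 in jar1-11 (adjusted p = 0.986). RD29A ranged from 305 to 894 CPM in WT, and RD29A differed by -2.49 in JAR1-OE (adjusted p = 0.00126) and by -0.75 in jar1-11 (adjusted p = 0.879). Differences of one line called and of the other not called were not tested against each other.

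The same pair of lines was set against each other after 14 days without water, in 6 other libraries. There 9885 of 17516 genes tested differed (56.4%), 5200 higher (29.7%) and 4685 lower (26.7%) in JAR1-OE, and the change in the line contrast between conditions was itself called for 6079 genes (34.7%). Among the 16459 genes tested in both conditions 5006 were called higher and 4268 lower under drought, and the shares of the drought list are of these counts. Of the genes called higher in watered JAR1-OE 1264 were also higher under drought, which is 68.4% of the watered list and 25.2% of the drought list. Of those called lower 647 were lower in both (46.9% and 15.2%). A further 139 were higher in watered plants and lower under drought (7.52% and 3.26%), and 241 the reverse (17.5% and 4.81%). The contrast differed between conditions for 1426 of the 3229 genes called in watered plants (44.2%).

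Of 9 jasmonate turnover genes 4 were called higher under drought and 0 lower, and the change between conditions was called for 2. Of all genes tested 29.7% were called higher and 26.7% lower under drought, and the change was called for 34.7%. ILL6 stood at 7.92, 15.1 and 8.05 CPM in jar1-11 and 44.4, 37.6 and 35.7 CPM in JAR1-OE under drought (log2 fold change 1.90, adjusted p = 4.48e-06), and the change from watered plants was not called (-0.44, adjusted p = 0.302). JAZ10 (3.01, adjusted p = 4.3e-06; change -0.06, adjusted p = 0.933) and TGG1 (2.56, adjusted p = 1.44e-07; change 0.49, adjusted p = 0.178) changed by amounts that were not called either. VSP2 went further apart, at 1.91, 1.2 and 1.86 CPM in jar1-11 and 4939, 2824 and 2559 CPM in JAR1-OE (log2 fold change 11.03, change 5.11, adjusted p = 9.13e-05). LOX2, which overlapped in watered plants, was at 1.91, 4.13 and 6.61 CPM in jar1-11 and 1452, 1076 and 864 CPM in JAR1-OE under drought, with every JAR1-OE library far above jar1-11 (change 7.68, adjusted p = 1.7e-07). BGLU18, already higher in watered JAR1-OE, was at 3.96, 1.87 and 19.6 CPM in jar1-11 and 4303, 4294 and 3947 CPM in JAR1-OE (change 7.38, adjusted p = 2.06e-06). JAR1 itself differed by 3.59 under drought (adjusted p = 3.89e-08), a change of 1.55 (adjusted p = 0.00291).

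Of 17 aliphatic glucosinolate genes 16 were called higher under drought, where 0 were in watered plants, and the change was called for 16. Drought counts in this paragraph stand beside 29.7% called higher, 26.7% lower and 34.7% with the change called over all genes tested. Of 17 biosynthesis genes 9 were higher and 4 lower, with the change called for 11. All 35 photosynthesis genes were higher under drought and the change was called for 32. Of 27 ABA and drought genes 21 were called lower and 3 higher under drought, and the change was called for 19. RD29A was at 4775, 3562 and 4510.3 CPM in jar1-11 and 1105, 1571 and 1519 CPM in JAR1-OE, with a log2 fold change of -1.61 and a change of 0.11 (adjusted p = 0.798). Some genes changed sides. MYC4, lower in watered JAR1-OE, was at 13.2, 9.6 and 12.8 CPM in jar1-11 and 48.3, 67 and 48.7 CPM in JAR1-OE under drought, above jar1-11 in each library (log2 fold change 2.21, change 2.84, adjusted p = 1.12e-06). ORA59 was at 1.03, 0.933 and 1.45 CPM in jar1-11 and 8.93, 7.85 and 5.62 CPM in JAR1-OE (2.74, change 3.78, adjusted p = 1.55e-05). NAC019 went the other way, at 228, 361 and 236 CPM in jar1-11 and 226, 158 and 114 CPM in JAR1-OE (-0.73, change -1.98, adjusted p = 0.00056).

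**Figure D4:**
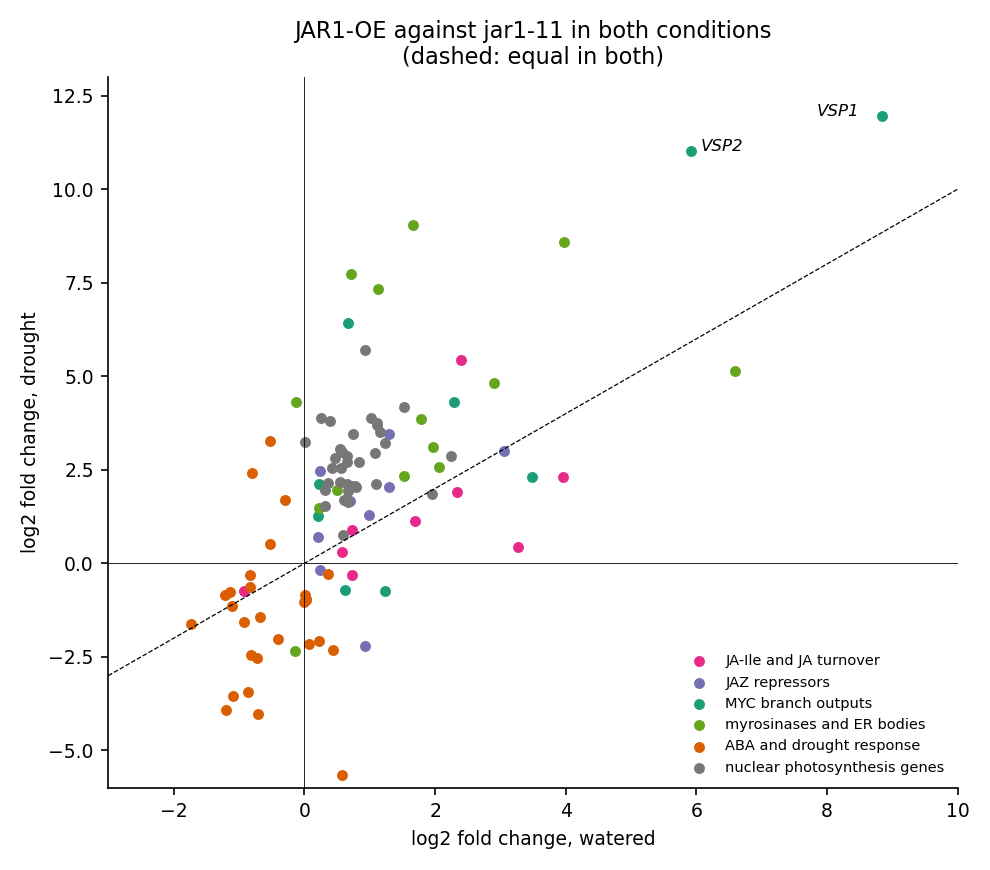
Log2 fold change of JAR1-OE against jar1-11 in watered plants (horizontal) and under drought (vertical) for tested members of 6 gene lists, where each point is a gene and the dashed line marks equal values. VSP1 and VSP2 lie above the line at the upper right. All 35 photosynthesis genes lie above 0 on the vertical axis, and most ABA and drought genes lie below it.

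The genes next to JAR1 on chromosome 2 were read because jar1-11 is labelled as an insertion line of this locus. Of the 5 genes on either side 7 were tested and 1 was called, beside 19.6% of all genes tested. AT2G46380, at 19039024 to 19042348, had 1.43, 1.02 and 0.672 CPM against 3.05, 2.43 and 2.58 CPM (log2 fold change 1.302 ± 0.41, adjusted p = 0.0414), from 25 and 55 reads, and it lost the call without jar1-11 library 1, 2 or 3 or JAR1-OE library 1, 2 or 3 (adjusted p 0.054 to 0.144). Its span overlaps that of SDH8, a gene of the respiratory chain, and reads of overlapping genes cannot be told apart here. SDH8 itself was not called (-0.08, adjusted p = 0.81). WRKY46, the next gene, was at 15.2, 15 and 17.3 CPM against 13.9, 9.55 and 9.93 CPM (adjusted p = 0.0768) and was called lower without JAR1-OE library 1 (adjusted p = 0.0306). CRF5, AT2G46320, AGP16 and SPA1 were not called (adjusted p 0.208 to 0.511). The call of AT2G46380 was lost in the wider fits both with 9 and with 18 libraries (adjusted p 0.0766 to 0.164). Calls were also lost for AT2G46380 with DESeq2 (adjusted p = 0.0841), without the filter on low counts (adjusted p = 0.0599) and with the replicate number as a block (adjusted p = 0.0513).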

How the data were processed

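RNA of rosette leaves was made into libraries with the QuantSeq 3′ mRNA kit and sequenced as single reads of 50 bases on an Illumina instrument, per the labels' protocols. The deposited values are counts of unique reads per gene, per the file headers. Aligner, counter, strand setting and genome build: not given in the sources used here. Gene identifiers (27445 of 27655) were matched to RefSeq TAIR10.1 for symbols and positions. The YFP-JAR1 entry was kept out of totals and tests. Totals of the 6 libraries ranged from 5721092 to 9506727 reads.

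Groups were taken from the labels. The 6 libraries were scaled by TMM, filtered with filterByExpr and modelled by line (edgeR 4.0.16 in R 4.3.3), using quasi-likelihood tests and Benjamini-Hochberg adjustment at 0.05. The drought pair and the difference between conditions were fitted on the 12 libraries of both lines (17516 genes), and contrasts with WT on the 9 watered libraries. Levels are CPM on the TMM scale of the 9 watered libraries, and under drought on that of the 12. For a group with 0 reads, folds are bounds with 3 reads in the group set in place of 0. For 1 to 3 reads they are pooled ratios with exact binomial 95% intervals. Both cover counting error alone, because reads of a group were pooled and variation between its libraries was left out. The labels mention no molecular identifiers, so reads may include copies of the same molecule. On counts simulated for this comparison over 16292 genes, the test found 84.7% of 98 genes given a 2-fold change and 100% of 97 given a 4-fold one; 5.26% of its 190 calls were false. The simulation gave every gene the same spread between libraries and changed few genes, unlike the data. Its rates therefore do not carry over, and the share of false calls among the 3229 calls between the lines was not tested. Within each line the watered libraries differed beyond sampling noise (chi-square over its degrees of freedom 5.54 to 12.7). Among the watered WT libraries this value was 6.53 to 27.9.

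The members and the 25 gene lists (367 genes, 58 entries not tested, 1 not in the files) were chosen with earlier results of these data known. Genes named are JAR1, the 10 largest rises and falls with at least 10 CPM and no overlap, up to 5 called and 2 uncalled members of each list, the 5 genes on each side of JAR1, and the 5 largest differences between conditions each way; called list members beyond these were named to complete a count. Alternatives were RLE scaling, upper-quartile scaling, DESeq2 1.42.0, limma-voom 3.58.1, no filter, no organelle genes, a fold threshold, wider fits, a replicate block and each library left out.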

Additional observations from a re-analysis of the deposited data

Results flagged for a closer look

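For 89 of 171 named genes the difference between JAR1-OE and jar1-11 was itself different under drought and in watered plants (edgeR quasi-likelihood test of the interaction, adjusted p of 0.0486 or less). Over all genes tested the same difference was called for 6079 of 17516 (34.7%). The named genes include the 5 largest differences each way, picked by this test, and lists chosen with earlier results known. Their share called is therefore no result about the named genes. The change, as the log2 fold change under drought minus that in watered plants, was positive for 66 genes and negative for 23. In 13 genes both contrasts were called with opposite signs.

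The change was 1.55 for JAR1 itself. Among the 10 largest rises of watered plants the change was 5.11 for VSP2. Among the 10 largest falls of watered plants the change was -1.57 for CIPK25, 3.55 for AHP4, 1.88 for GSTF12, 2.33 for AT1G80130, 3.13 for AT5G59680 and 1.38 for NAS1. The largest changes each way among genes called in watered plants were -5.94 for ChiC, -5.81 for BGLU15, -5.37 for XTH22, -5.18 for RCI2B, -5.06 for AT1G03220, 10.07 for JAL23, 8.81 for NUDT24, 8.49 for FLA2, 8.42 for FLA12 and 8.26 for AT3G28220. The watered log2 fold changes behind some of these moved when 1 library was left out. That of NUDT24 was -8.21 without JAR1-OE library 2 against -4.22 with all 6, that of BGLU15 7.31 without jar1-11 library 3 against 5.44, and that of JAL23 3.51 without jar1-11 library 3 against 2.79. The watered calls of ChiC, FLA12, FLA2, RCI2B and XTH22 were lost without single libraries, and those of ChiC, FLA12 and XTH22 also with the spread estimated over 9 or 18 libraries (the adjusted p reached 0.121, 0.161, 0.0621, 0.232 and 0.162 without 1 library). With all 18 libraries the calls of FLA2 and AT1G03220 were lost. Beside JAR1 on the chromosome the change was -1.83 for AGP16 and -0.78 for SDH8.

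In jasmonate biosynthesis it was 7.68 for LOX2, 2.69 for AOC2, 1.96 for AOC1 and 0.98 for OPCL1. For the GH3 family the change came to 2.11 for GH3.5 and 1.99 for DFL2. Changes for jasmonate turnover were 3.02 for JMT and -2.86 for JRG21. In the JAZ repressors it was 2.22 for JAZ6, 2.15 for JAZ9, 0.94 for JAZ2 and 0.48 for JAZ12. For the receptor and MYC genes the change came to 2.84 for MYC4, 1.32 for MYC2 and -0.65 for TPL. Changes for the MYC outputs were 2.01 for NATA1, 1.90 for TAT3, 1.03 for CORI3 and -1.98 for NAC019. In the ERF outputs it was 7.13 for THI2.1 and 3.78 for ORA59. For myrosinases and ER bodies the change came to 7.38 for BGLU18, 4.61 for MBP2, 4.41 for ESM1, 1.12 for TGG2, 0.78 for NSP1 and -2.21 for NSP5. Changes for aliphatic glucosinolates were 5.09 for MAM3, 3.66 for BCAT4 and 3.28 for CYP83A1. In indolic glucosinolates it was 3.09 for CYP79B3, 0.86 for GSTF9 and -4.36 for CYP71A13. For flavonoids the change came to 2.47 for UGT75C1, 1.98 for FLS1, 1.79 for LDOX and 1.18 for DFR. Changes for salicylic acid genes were 2.38 for PR2 and 1.11 for WRKY54.

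In ABA and drought genes it was 3.78 for COR15B, 1.03 for RD22, -1.82 for COR47 and -2.73 for LTI30. For photosynthesis the change came to 2.64 for RBCS3B, 2.35 for RBCS1A, 1.96 for LHCB1.3, 1.85 for PSAN, 1.78 for PSAD-1 and 1.21 for PSBR. Changes for wall enzymes were 6.40 for EXPA3, 4.602 for XTH9, 4.59 for EXPA6, 4.07 for EXPA10, 2.64 for XTH16, 2.46 for EXPA1 and 1.99 for XTH24. In antioxidant genes it was 1.65 for FSD1, 0.98 for DHAR1 and -0.81 for CAT2. For senescence the change came to -1.72 for SAG21. Changes for heat shock were -0.92 for HSP101 and -1.68 for MED37C, which is the HSP70 gene AT3G12580 named above. In touch genes it was -1.71 for TCH3, -2.31 for WRKY33 and -3.70 for ZAT10. For the clock the change came to -0.65 for ELF4. Changes for guard cell and stomatal genes were 3.76 for EPF2 and 1.61 for KAT1. In phloem markers it was 2.74 for SULTR2;1.

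The fitted changes of EXPA3, JAL23, FLA2 and FLA12 depend on the prior count and are no bounds, since jar1-11 had 0 reads under drought; with 3 reads set in place of 0 for the group, JAR1-OE was then at least 37.7-fold higher for EXPA3, 879-fold higher for JAL23, 68.6-fold higher for FLA2 and 73.6-fold higher for FLA12. The same holds for JMT, THI2.1, XTH16, EXPA10, EPF2 and NUDT24, with 1 to 3 reads in jar1-11 under drought, where pooled reads were 52.4-fold higher (95% interval 14.2 to 438) for JMT, 1326-fold higher (95% interval 238 to 52401) for THI2.1, 24.9-fold higher (95% interval 8.24 to 124) for XTH16, 95.9-fold higher (95% interval 26.2 to 797) for EXPA10, 66.4-fold higher (95% interval 11.5 to 2660.2) for EPF2 and 33.7-fold higher (95% interval 5.67 to 1367) for NUDT24. BGLU15 had 3 reads or fewer in watered jar1-11, and its fitted change is no bound either.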

How the results depend on the processing

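The 3229 calls between the lines came to 3250 under RLE scaling, 3184 under upper-quartile scaling, 3231 with limma-voom, 2945 with DESeq2, 3707 without the filter on low counts and 3221 without organelle genes. Of the original calls 3206, 3144, 3109, 2860, 3149 and 3199 were shared. A spread estimated over more libraries gave fewer calls, with 1784 (1098 higher, 686 lower) in the fit of all 18 libraries and 1767 (1100 and 667) in that of the 9 watered ones; the cause was not tested. A test against a fold threshold of 0.5 on the log2 scale left 835 (622 and 213), by its construction, and 74.5% of these were higher against 57.2% of the 3229. Leaving out single libraries gave 1872 to 3494 calls, 1137 to 1994 higher and 735 to 1500 lower. JAR1-OE against WT gave 455 to 1835 calls and jar1-11 against WT 2 to 18 under the same removals. jar1-11 against WT gave 42 calls with DESeq2, 36 without the filter on low counts and 1 in the fit of all 18 libraries. Same-numbered libraries of the 2 lines deviated with correlations of 0.129, -0.0643 and -0.0130, and not every library correlated best with its own number. Deviations from a mean of 3 libraries are tied to each other, so these values cannot decide whether the numbers pair libraries. A fit with the replicate number as a block gave 3231 calls, 3006 of them shared, 841 for JAR1-OE against WT, watered, and 2 for jar1-11 against WT, watered.

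Of 147 called named genes 85 kept the call under every alternative other than the fold threshold, 41 lost it without some single library, and 0 turned sign. Signs turned for uncalled genes alone. XTH24, near 0, stood at 0.0077 with all 18 libraries, 0.012 under upper-quartile scaling and 0.0048 with limma-voom. When single libraries were left out the log2 fold changes ran from -0.053 to 0.32 for CORI3, -0.17 to 0.22 for HEL, -0.14 to 0.0032 for EIN3, -0.50 to 0.56 for PR2, -0.61 to 0.83 for PR5, -0.39 to 0.15 for EXPA1, -0.29 to 0.33 for XTH24, -0.16 to 0.075 for CAT3, -0.25 to 0.044 for FSD1, -0.051 to 0.0026 for HSP101, -0.10 to 0.19 for TOC1, -0.18 to 0.10 for ELF4, -0.027 to 0.55 for MYB60, -0.26 to 0.17 for SULTR2;1, -0.18 to 0.076 for APL and -0.27 to 0.063 for SDH8. Depth limits low genes: 3 reads are 0.316 to 0.524 CPM, and a difference in a gene under a few CPM was not detectable unless large.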

Other observations

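Beyond the lists, genes were grouped by the stem of their symbols, and families of at least 8 tested genes in which 50% or more were called higher, or over 40% lower, were picked after their values were seen. They are described without a test, beside 11.2% of all genes tested called higher and 8.39% called lower. The first rule took in BGAL, ENODL, EXPA, FLA, HTA, HTR, JAL, LHCB and SKS, and the second ABCC, EDA, HSP, RRP and SD, of which some are described here. Of 11 BGAL genes, which encode β-galactosidases, 7 were higher and 0 lower (median log2 fold change 0.72). BGAL1 averaged 738 ± 158 CPM in jar1-11 and 1909 ± 103 CPM in JAR1-OE (SD, n = 3; log2 fold change 1.37, adjusted p = 0.000137, edgeR quasi-likelihood). Of 13 FLA genes, which encode fasciclin-like arabinogalactan proteins, 7 were higher and 0 lower (median 0.68). FLA8 averaged 127 ± 20.9 CPM in jar1-11 and 247 ± 22.5 CPM in JAR1-OE (SD, n = 3; log2 fold change 0.96, adjusted p = 0.000502, edgeR quasi-likelihood). Of 10 ENODL genes, which encode early nodulin-like surface proteins, 5 were higher and 0 lower. ENODL15 averaged 4.31 ± 1.52 CPM in jar1-11 and 48 ± 17.3 CPM in JAR1-OE (SD, n = 3; log2 fold change 3.43, adjusted p = 1.68e-05, edgeR quasi-likelihood). ENODL14 was also higher (3.32, adjusted p = 0.000117), and its log2 fold change was 3.96 without jar1-11 library 2.

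Of 10 HTA genes (histone H2A) 6 were higher and 0 lower (median 0.66), and of 9 HTR genes (histone H3) 6 were higher and 0 lower (median 1.13), although near-identical copies among them share reads. HTA6 averaged 24.5 ± 4.67 CPM in jar1-11 and 87.4 ± 19.3 CPM in JAR1-OE (SD, n = 3; log2 fold change 1.83, adjusted p = 3.6e-05, edgeR quasi-likelihood). Of 8 jacalin-related lectin genes (JAL) 4 were higher and 1 lower, with JAL35 at 87.9 ± 30.6 CPM in jar1-11 and 338 ± 11.4 CPM in JAR1-OE (SD, n = 3; log2 fold change 1.95, adjusted p = 8.19e-05, edgeR quasi-likelihood). Among the falls, 13 of 27 genes named HSP were lower and 2 higher (median -0.51). HSP70-10 averaged 41.1 ± 3.84 CPM in jar1-11 and 16.2 ± 2.16 CPM in JAR1-OE (SD, n = 3; log2 fold change -1.34, adjusted p = 9.38e-05, edgeR quasi-likelihood). HSP90-6 was also lower (-1.12, adjusted p = 0.000464), and HSP17.4B was higher (1.39, adjusted p = 0.00567). Of 12 ABCC transporter genes 5 were lower and 0 higher (median -0.49).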
